A study of Mus musculus with 37 samples.

Results

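Right lungs of fetuses of the inbred mouse strain B6 (C57BL/6J) at E17.5 were compared with right lungs of B6 fetuses at E16.5, so the changes described here are those of a single day of gestation. Each age was represented by 3 arrays, and these 6 arrays belong to a series of 37, in which B6 lungs were sampled at 5 times and A/J lungs, from a strain with a longer gestation, at 7 times. All mice were untreated and carried no engineered allele, and each array measured RNA pooled from 3 male fetuses of 1 litter, so a litter is the replicate and females were not represented. The array was an Affymetrix mouse gene array that measures transcripts along their whole length, and its values are on a log2 scale, on which a difference of 1 is a doubling. Of 35556 probe sets, the 21789 with exactly 1 gene symbol were tested, and they stood for 19938 genes. A gene with several probe sets is given by the one with the highest mean, and changes are E17.5 minus E16.5 throughout.

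In the mouse these ages lie where the canalicular stage of lung growth passes into the saccular stage. The distal tubules widen into thin-walled sacs, and the epithelium that lines them divides its work between flat type I cells, across which gas will be exchanged, and cuboidal type II cells, which make surfactant, the mixture of phospholipids and proteins that keeps the air spaces open after the first breath. Over the same period cell division slows, capillaries come to lie against the epithelium, and the airways gain secretory club cells and ciliated cells. RNA of whole lung does not tell more cells of a type from more RNA per cell.

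Most of the listed genes of type I and type II cells and of airway secretory cells rose over the day, and most of those of DNA replication and mitosis fell. The lists and their members were chosen with earlier results of these data known, so list counts here and below are description and not independent evidence of direction. With limma's adjusted p under 0.05, 1414 probe sets rose (6.49% of those tested) and 1996 fell (9.16%). A fold of at least 1.5 was reached by 331 of the risen (1.52%) and 339 of the fallen (1.56%), which stood for 282 and 324 genes. The rises reached further than the falls: 64 genes rose at least 2-fold, 7 at least 4-fold and 3 at least 8-fold, against 24 genes that fell at least 2-fold and 0 that fell 4-fold. None of the 331 and none of the 339 had replicates that overlapped between the ages, and over all tested probe sets 36.2% had no overlap. Both sets were selected on these same values, so their lack of overlap is no separate support. The balance of the counts changed with 1 of 2 other scalings. After quantile normalization 345 probe sets rose and 349 fell by 1.5-fold. When each array was centred on its own median, which turned the median change of all tested probe sets to -0.0667 in place of 0.02, 234 probe sets rose and 519 fell by 1.5-fold.

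The 6 arrays had medians between 6.37 and 6.5, and correlated with each other at 0.9940 to 0.9959 within E17.5 and 0.9964 to 0.9966 within E16.5. Defining markers of lung epithelium (5 genes, among them Sftpc with 13.82, 13.74 and 13.76 log2 units at E17.5 and 13.61, 13.70 and 13.52 at E16.5) had means between 10.52 and 10.82 in the 6 arrays. RNA of liver genes was uneven between litters: the mean of 12 liver genes was 5.89, 6.61 and 5.98 at E17.5 and 7.21, 5.87 and 5.79 at E16.5, and albumin (Alb) reached 8.90 in E17.5 replicate 2 and 10.52 in E16.5 replicate 1, against 6.11 to 6.52 in the other 4 litters. Without these 2 litters, a choice made after the values were seen, 318 probe sets rose and 304 fell by 1.5-fold. Of these, 269 and 282 were among the 331 and 339 called with all litters. Krt4, a keratin of esophagus and upper airway, was at 5.12, 7.05 and 8.11 at E17.5 and at 5.42, 6.76 and 6.34 at E16.5, and of the 12 genes of its list 1 rose, Upk1b, a call lost without E17.5 replicate 2, E17.5 replicate 3 or E16.5 replicate 3. Of 19 heart genes, whose mean was 7.06, 7.25 and 7.09 at E17.5 and 7.08, 6.89 and 6.80 at E16.5, 1 rose, Ryr2. Over the lists of 26 macrophage, 15 neutrophil, 12 thymus, 13 skeletal muscle and 9 nerve genes, the lowest adjusted p in limma's test was 0.0577, for Mpeg1 of macrophages (log2 change 0.42). The lists with a call also held liver, where Trf, transferrin, rose by 1.13 (SE 0.25), cartilage, where Chad rose by 0.74 (SE 0.17), and mesothelium, where 3 of 11 rose (Msln, Krt19 and Upk1b). The part of these tissues in the results was not tested.

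The genes with the largest rises were mostly of secreted proteins and enzymes of lung epithelium. Chil1, a chitinase-like protein, had 9.65, 9.26 and 9.15 log2 units in the E17.5 litters, against 5.44, 6.10 and 5.37 in the E16.5 litters, a change of 3.72 (SE 0.23, fold 13.1, adjusted p = 1.1e-12). Lyz1, a lysozyme, was measured at 11.10, 10.75 and 10.56 at E17.5 and at 7.39, 7.82 and 7.27 at E16.5 (change 3.31, SE 0.23, fold 9.92), though Lyz1 and Lyz2 are close copies whose probes may not be fully separate. Scd1, the desaturase that makes monounsaturated fatty acids, stood at 10.41, 9.85 and 9.57 at E17.5 and at 6.76, 6.99 and 6.57 at E16.5 (change 3.17, SE 0.18, fold 9.0, adjusted p = 2.9e-13). In each of these genes the lowest E17.5 litter lay more than 4-fold above the highest E16.5 litter. Scgb1a1, the secretoglobin of club cells, rose by 2.96 (SE 0.41), and its E17.5 litters had 9.62, 9.36 and 9.11 against 6.25, 6.88 and 6.07 at E16.5. Hc, complement component C5, rose by 2.89 (SE 0.17, fold 7.41).

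The next genes in this order rose between 3-fold and 5-fold. They were Sftpd, the collectin surfactant protein D (2.16), Vnn1, a pantetheinase (2.05), Akr1c14, a hydroxysteroid dehydrogenase (1.95), Msln, the mesothelial surface protein mesothelin (1.92), Cbr2, a carbonyl reductase of lung (1.83), Retnla, a resistin-like protein (1.74), and Cp, the ferroxidase ceruloplasmin (1.73). Their SEs lay between 0.13 for Cp and 0.24 for Retnla. All 12 genes kept their call in each alternative that was run.

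The 12 largest falls were smaller and fell mostly on genes of dividing or of earlier fetal cells. Hbb-y, an embryonic beta-like globin, had 6.47, 6.62 and 6.61 log2 units at E17.5, against 8.64, 7.78 and 7.97 at E16.5 (change -1.56, SE 0.28, fold 2.96, adjusted p = 1.7e-04). The histone genes H2ac4 (-1.40), H1f1 (-1.13) and H2bc3 (-1.06) belong to families of near-identical copies, so the signal of 1 copy cannot be separated with certainty. Cenph and Ska3, of the kinetochore and its attachment to the spindle, fell by 1.18 and 1.09. Hells, a chromatin remodelling helicase needed for DNA methylation, was at 7.93, 8.19 and 8.44 at E17.5 and at 9.44, 9.17 and 9.38 at E16.5 (change -1.14, SE 0.15). Gins1, a subunit of the replicative helicase, fell by 1.12. Cldn6, a claudin of embryonic epithelia, had 9.05, 9.25 and 9.57 at E17.5 and 10.45, 10.40 and 10.34 at E16.5 (change -1.11, SE 0.15). Fmod, a small proteoglycan that binds collagen (-1.1), Fndc3c1 (-1.09) and Cfi, a protease that inactivates complement (-1.06), completed this group.

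**Figure D1:**
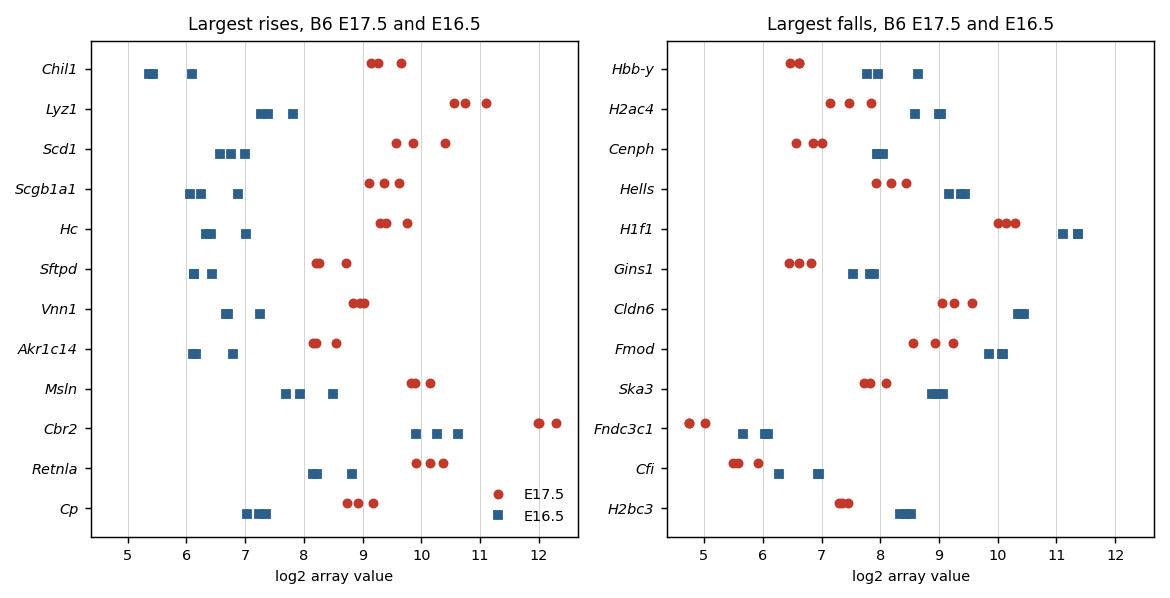
Log2 array values (horizontal axis) of the 12 genes with the largest rises (left) and the 12 with the largest falls (right). Each point is a litter, circles for E17.5 and squares for E16.5. The ages do not overlap in any of the 24 genes, which were chosen for this, and the rises span up to 3.72, against 1.56 for the falls.

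Surfactant genes rose with few exceptions, of which Sftpc, the gene of surfactant protein C, was one. Of 17 measured genes of a list of surfactant proteins, their processing, phospholipid transport and related genes of type II cells and surfactant turnover, 14 rose and 0 fell, with a median change of 0.66 beside 0.02 over all tested probe sets. Sftpa1, surfactant protein A, had 12.11, 12.07 and 11.95 log2 units at E17.5, against 10.31, 10.82 and 10.36 at E16.5 (change 1.55, SE 0.16, fold 2.92). Sftpb, needed for the surfactant film, rose by 0.84 (SE 0.17, adjusted p = 5.9e-04), and Abca3, which carries phospholipid into the lamellar bodies of type II cells, by 0.84 (SE 0.09). Slc34a2, a phosphate carrier of type II cells, rose by 1.5 (SE 0.25) and Lamp3, a lamellar body membrane protein, by 1.01 (SE 0.16). Sftpc had a change of 0.16 (SE 0.09, adjusted p = 0.264) that did not pass. Neither did 2 members that are no surfactant proteins, Dlk1 (0.09), a membrane protein encoded in an imprinted region, and Csf2rb (0.16), a cytokine receptor subunit. This count was 14 without any 1 of the 6 litters and with centred arrays.

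Of 19 other genes of type II cells, 14 rose and 0 fell, with a median of 0.78. Besides Chil1, Lyz1 and Hc, they held Cxcl15, a chemokine of lung epithelium, with 12.19, 12.01 and 11.91 at E17.5 and 10.17, 10.87 and 10.32 at E16.5 (change 1.58, SE 0.16, fold 3.00). Il33, a cytokine of type II cells, had a change of 0.42, and Etv5, a transcription factor downstream of FGF signals, one of -0.14. Neither passed the test.

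Of 24 genes of type I cells 22 rose and 1, Igfbp2, fell, with a median of 0.59. Rtkn2, a rhotekin of type I cells, stood at 8.75, 8.19 and 7.86 at E17.5 and at 6.71, 6.74 and 6.84 at E16.5 (change 1.5, SE 0.19, adjusted p = 1.9e-06). Spock2, a matrix proteoglycan, rose by 1.47 (SE 0.15), Gprc5a, a receptor of the alveolar epithelium, by 1.20 (SE 0.11) and Ager, the receptor for advanced glycation end products, by 1.19 (SE 0.12). The Ager values were 12.26, 12.05 and 12.13 at E17.5, against 10.84, 11.21 and 10.81 at E16.5. Hopx, a homeodomain protein of type I cells, rose by 0.86 (SE 0.11, adjusted p = 5.0e-06). Igfbp2, an IGF binding protein, had 8.37, 8.40 and 8.75 at E17.5 and 9.40, 9.36 and 9.38 at E16.5, a change of -0.87 (SE 0.12). The count of risen type I genes was 16 with centred arrays, and 16 at the lowest when a litter was left out, which was E16.5 replicate 3.

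**Figure D2:**
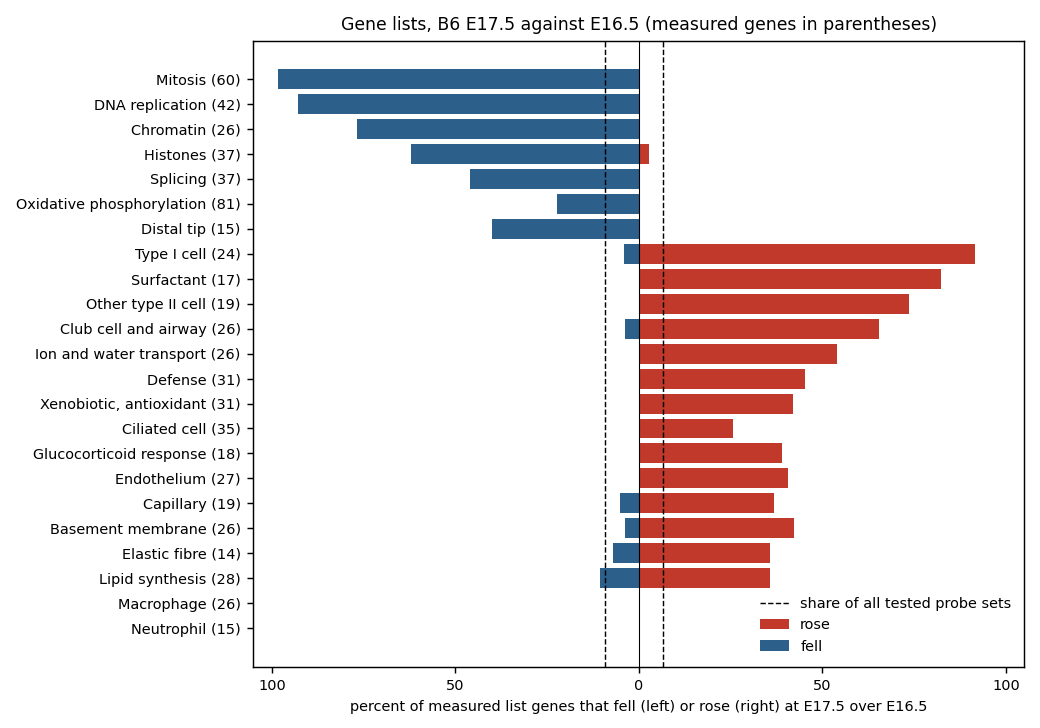
Share of the measured genes of each list (rows, number of genes in parentheses) that fell (left, blue) or rose (right, red) at E17.5 over E16.5, in percent of the list. Dashed lines give the shares of all tested probe sets, 9.16% fallen and 6.49% risen, and the longest bars are those of mitosis (59 of 60 fallen) and DNA replication (39 of 42 fallen) on the left and of type I cells (22 of 24 risen) on the right. The lists were chosen with earlier results of these data known.

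The fetal lung secretes fluid into its lumen, and sodium channels and pumps of the epithelium turn this flow round for birth. The list of ion channels, pumps and water channels held 26 measured genes, of which 14 rose and 0 fell (median 0.30). All subunits of the epithelial sodium channel on the list rose: Scnn1a by 1.38 (SE 0.15), Scnn1g by 1.24 (SE 0.11) and Scnn1b by 0.46 (SE 0.12). Scnn1a had 9.40, 9.01 and 9.11 at E17.5, against 7.63, 8.18 and 7.56 at E16.5, with no overlap between the ages. Aqp1, a water channel found in lung capillaries, rose by 1.08 (SE 0.12) and Kcnj15, an inward rectifier potassium channel, by 0.96 (SE 0.15).

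Lipid genes moved unevenly. Scd1 stood apart in the list of fatty acid and phospholipid synthesis, in which 10 of 28 genes rose and 3 fell (median 0.22): Fasn, fatty acid synthase, rose by 0.58 (SE 0.10), Gpam, the first enzyme of glycerolipid synthesis, by 0.45 (SE 0.08), and no risen member other than Scd1 reached 1.5-fold. The fallen members were Elovl6 (-0.48), which elongates fatty acids and lost its call without both litters with high liver RNA (adjusted p = 0.0503), and the desaturases Fads1 (-0.31) and Fads2 (-0.33). The risen count was 4 with centred arrays, and 6 without E17.5 replicate 1, E16.5 replicate 1 or E16.5 replicate 3. Of 23 genes of lipid uptake and storage 8 rose and 0 fell, led by Cd36, a fatty acid carrier, with 10.79, 10.67 and 10.60 at E17.5 and 9.31, 9.82 and 9.14 at E16.5 (change 1.26, SE 0.13), and the count was 5 without E17.5 replicate 1. Of 18 genes of cholesterol synthesis 1 rose, Insig1 (0.41), and 1 fell, Sqle (-0.40), and neither call held without E16.5 replicate 3 (median of the list -0.07). In A/J lungs over the same day, 0 rose and 13 fell (median -0.38). None of the 18 passed the test of the difference between strains.

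Secretory airway genes rose alongside. Of 26 genes of club cells and airway secretion, 17 rose and 1, Aldh1a7, fell (median 0.54), and the count was 9 without both litters with high liver RNA. Cbr2 was at 12.29, 12.01 and 11.98 at E17.5 and at 10.27, 10.62 and 9.91 at E16.5, and Hp, the hemoglobin-binding haptoglobin, rose by 1.25 (SE 0.19). Enzymes that handle foreign compounds overlap with this group: of 31 such genes and antioxidant genes, 13 rose and 0 fell (median 0.31), among them the P450 genes Cyp2e1 (1.1, SE 0.17) and Cyp2f2 (1.08, SE 0.14), the flavin monooxygenase Fmo2 (0.94, SE 0.17) and the carboxylesterase Ces1d (0.79, SE 0.11). That count was 7 without E16.5 replicate 3 and 8 without E17.5 replicate 1. Of 31 genes of innate defense, several of which also stand on the lists above, 14 rose and 0 fell (median 0.25).

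Ciliated cell genes rose in part over this day in B6. Of 35 genes 9 rose and 0 fell, with a median of 0.17, and among all tested probe sets 6.49% rose. Cdhr3, a cadherin of ciliated cells, had 6.88, 6.90 and 6.93 at E17.5, against 6.01, 6.33 and 6.11 at E16.5 (change 0.75, SE 0.12), and Hydin and Dnah9, parts of the ciliary axoneme, rose by 0.65 (SE 0.10) and 0.59 (SE 0.10). Over the day before, from E15.5 to E16.5, 26 of the 35 rose in B6 (median 0.55), and over the same day 28 rose in A/J (median 0.67). The shares of all tested probe sets that rose were 6.84% in the first of these comparisons and 12.7% in the second. A single gene of the list, Ccno, passed the test of the difference between strains.

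The fall of proliferation genes was close to complete across their lists and even in size. Of 60 genes of mitosis 59 fell, by a median of 0.77 on the log2 scale, and the largest fall of the list was 0.98. Hmmr, a spindle protein, had 7.05, 7.17 and 7.50 at E17.5, against 8.18, 8.23 and 8.25 at E16.5 (change -0.98, SE 0.18, adjusted p = 2.2e-04). Bub1, a kinase of the spindle checkpoint, fell by 0.97 (SE 0.17), and the kinesins Kif15 and Kif4 by 0.96 (SE 0.19) and 0.95 (SE 0.15). Pttg1, securin, was the member that did not fall, with 7.75, 7.92 and 7.89 at E17.5 and 7.48, 7.67 and 7.59 at E16.5 (change 0.27, SE 0.13, adjusted p = 0.152). The count of fallen genes was 52 at the lowest when a litter was left out (E17.5 replicate 1) and 47 without both litters with high liver RNA.

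Of 42 genes of DNA replication and its control 39 fell and 0 rose (median -0.78). Uhrf1, which brings the maintenance methyltransferase to new DNA, fell by 1.05 (SE 0.15), with 8.40, 8.77 and 8.81 at E17.5 and 9.67, 9.63 and 9.83 at E16.5. Ccne2, a cyclin of S phase entry, fell by 1.03 (SE 0.15) and Pole, the leading strand polymerase, by 1.02 (SE 0.14). The members that did not pass were Orc1 (-0.37) and the transcription factors E2f1 (-0.32) and E2f2 (0.07). Histone genes and chromatin genes fell in part: 23 of 37 histone genes fell and 1, H1f7, rose (0.35, SE 0.11; median -0.44), and 20 of 26 chromatin genes fell (median -0.38), with Suv39h2, a histone methyltransferase, at -0.95 (SE 0.12), Hmgb3, an HMG box protein, at -0.85 (SE 0.09) and Hmgn5, a nucleosome binding protein, at -0.84 (SE 0.12). The rise of H1f7 lost its call without E17.5 replicate 1 or 2 or E16.5 replicate 1 or 3, the count of fallen histone genes was 15 without E16.5 replicate 1, and the chromatin count 12 without E16.5 replicate 3. Rbl1, the pocket protein p107, fell by 0.64 (SE 0.10), and Cdkn2b, an inhibitor of the G1 kinases, rose by 0.62 (SE 0.15), with 8.11, 7.63 and 7.79 at E17.5 and 7.20, 7.30 and 7.16 at E16.5.

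Promoters of the fallen genes of the mitosis and replication lists were searched for motifs known to time transcription in the cell cycle. The letters searched, on both strands, were CCAAT, the box bound by NF-Y, TTTGAA or TTTAAA, forms of the cell cycle homology region (CHR), and TTTGGCGC or TTTCGCGC, forms of an E2F site. No form of 1 kind holds a form of another. RefSeq promoters, 300 bases around the transcript start, most of them upstream of it (build GRCm38.p6), were found for 49 of the 59 fallen mitosis genes (51 promoters). Of these, 70.6% held CCAAT, 82.4% a CHR form and 64.7% both, against 37.4%, 27.6% and 10.7% of all 32851 promoters of the table. Of 39 promoters of 32 fallen replication genes, 61.5% held CCAAT, 30.8% a CHR form and 25.6% an E2F form, beside 0.813% with an E2F form in the whole table and 7.84% in the mitosis genes. In the 44 promoters of risen surfactant, type II and type I genes, 29.5% held CCAAT, 31.8% a CHR form and 2.27% an E2F form. These shares describe letters, not binding. Nearly all members of the mitosis and replication lists fell, so their shares are those of the chosen lists. A relation of the motifs to the fall was not tested.

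The promoters of 2 mitosis genes and 2 replication genes are shown because they carry these letters, printed in the direction of transcription with the searched motif in capitals. In Hmmr and Kif4 the capitals mark CCAAT, or ATTGG where it lies on the other strand, and TTTGAA. In Mcm3, a subunit of the replicative helicase (change -0.91, SE 0.14), and Pola1, the catalytic subunit of the priming polymerase (-0.86, SE 0.14), they mark TTTGGCGC or its reverse complement alone.
Hmmr, chr11:40733388-40733687, minus strand: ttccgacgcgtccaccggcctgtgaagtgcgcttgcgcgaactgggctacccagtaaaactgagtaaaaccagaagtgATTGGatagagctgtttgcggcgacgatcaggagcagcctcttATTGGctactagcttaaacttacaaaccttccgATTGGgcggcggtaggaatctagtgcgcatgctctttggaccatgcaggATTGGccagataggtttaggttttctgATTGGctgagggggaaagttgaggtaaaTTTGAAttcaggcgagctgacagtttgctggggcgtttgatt
Kif4, chrX:100625815-100626114, plus strand: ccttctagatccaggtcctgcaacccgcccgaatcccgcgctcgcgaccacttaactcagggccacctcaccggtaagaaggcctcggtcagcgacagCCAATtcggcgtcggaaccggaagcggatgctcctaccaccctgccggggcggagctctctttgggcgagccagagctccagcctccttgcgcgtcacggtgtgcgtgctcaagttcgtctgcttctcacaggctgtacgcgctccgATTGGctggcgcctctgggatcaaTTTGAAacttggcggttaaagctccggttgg
Mcm3, chr1:20820263-20820562, minus strand: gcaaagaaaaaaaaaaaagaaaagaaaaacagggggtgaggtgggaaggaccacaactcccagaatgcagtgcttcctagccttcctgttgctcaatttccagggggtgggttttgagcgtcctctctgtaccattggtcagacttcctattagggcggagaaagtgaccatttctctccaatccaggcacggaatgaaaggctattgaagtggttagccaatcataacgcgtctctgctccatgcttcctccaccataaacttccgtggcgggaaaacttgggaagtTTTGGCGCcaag
Pola1, chrX:93632106-93632405, minus strand: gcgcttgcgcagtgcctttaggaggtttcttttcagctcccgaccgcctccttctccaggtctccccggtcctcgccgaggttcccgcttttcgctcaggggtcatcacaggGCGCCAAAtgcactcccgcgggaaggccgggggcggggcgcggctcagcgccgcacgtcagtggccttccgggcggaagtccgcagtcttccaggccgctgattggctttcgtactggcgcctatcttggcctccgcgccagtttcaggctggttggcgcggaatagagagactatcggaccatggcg
Hmmr held 5 CCAAT boxes, all on the reverse strand, between 172 and 20 bases before the start, and TTTGAA 8 bases after it. Kif4 held CCAAT 152 and 5 bases before the start and TTTGAA 19 bases after it. The E2F form lay 38 bases after the start in Mcm3 and 138 bases before it in Pola1.

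A block of imprinted genes on chromosome 12, noticed after the values were seen, held rises and no falls. The region from Dlk1 to Mir369 is expressed mostly from 1 parental copy: its protein-coding genes Dlk1 and Rtl1 from the paternal chromosome, and the long noncoding RNAs Meg3 and Rian and a large cluster of miRNA genes from the maternal one. All 46 measured genes of the region had changes above 0 (0.02 to 1.21, median 0.44), 18 rose and 0 fell, and 40 had no overlap between the ages. Over all tested probe sets 6.49% rose and 36.2% had no overlap. Some members had low levels, such as Mir376c with means of 3.25 at E17.5 and 3.10 at E16.5, below the array medians of 6.37 to 6.5. Meg3 had 11.71, 11.58 and 11.60 at E17.5, against 10.78, 10.87 and 10.74 at E16.5 (change 0.83, SE 0.14, fold 1.78, adjusted p = 1.1e-04). Rian was at 7.79, 8.05 and 7.98 at E17.5 and at 7.44, 7.26 and 7.23 at E16.5 (change 0.63, SE 0.16). Dlk1 did not pass, with a change of 0.09 (SE 0.06), and Rtl1 did not either, with 0.20 (SE 0.14).

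Of the 40 miRNA genes of the region 15 rose (37.5%, median 0.44), and of 260 miRNA genes elsewhere 18 rose and 0 fell (6.92%, median 0.12). Changes above 0 were common there too, in 205 of the 260. With centred arrays 44 of the 46 genes of the region and 153 of the 260 elsewhere were above 0, and after quantile normalization 45 and 176. Over the day before, 1 of the 46 rose and the median was 0.00, and Meg3 changed by 0.04. In A/J from E16.5 to E17.5, 25 of the 46 rose and 0 fell, with a median of 0.44, and Meg3 rose by 0.74. None of the 46 passed the test of the difference between strains. The count of risen genes in B6 was not steady. It was 14 with centred arrays, 7 without E16.5 replicate 1 and 3 without both litters with high liver RNA, against 34 when the 6 arrays were tested alone.

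The 5 miRNA genes of the region with the largest rises were Mir543 (1.21, SE 0.22), Mir380 (0.99, SE 0.30), Mir369 (0.90, SE 0.26), Mir300 (0.89, SE 0.26) and Mir495 (0.88, SE 0.22). Mir543 had 6.58, 6.35 and 6.47 at E17.5, against 5.10, 5.48 and 5.20 at E16.5, and it kept its call in each alternative, while the others lost theirs in 2 to 5 of them, all 4 without both litters with high liver RNA. The array does not tell a host transcript or hairpin precursor from a mature miRNA. The mature sequences of these 5 genes are shown with the seed, bases 2 to 8, in capitals, because the seed sets which transcripts a miRNA pairs with.
mmu-miR-543-5p: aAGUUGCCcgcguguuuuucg
mmu-miR-543-3p: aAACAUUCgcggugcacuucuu
mmu-miR-380-5p: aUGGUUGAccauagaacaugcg
mmu-miR-380-3p: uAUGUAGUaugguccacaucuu
mmu-miR-369-5p: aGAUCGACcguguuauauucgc
mmu-miR-369-3p: aAUAAUACaugguugaucuuu
mmu-miR-300-5p: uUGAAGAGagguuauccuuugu
mmu-miR-300-3p: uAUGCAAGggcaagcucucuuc
mmu-miR-495-5p: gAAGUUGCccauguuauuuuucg
mmu-miR-495-3p: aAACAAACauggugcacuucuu
No seed is shared: the 15 risen miRNA genes have 28 mature sequences in RefSeq and 28 different seeds.

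**Figure D3:**
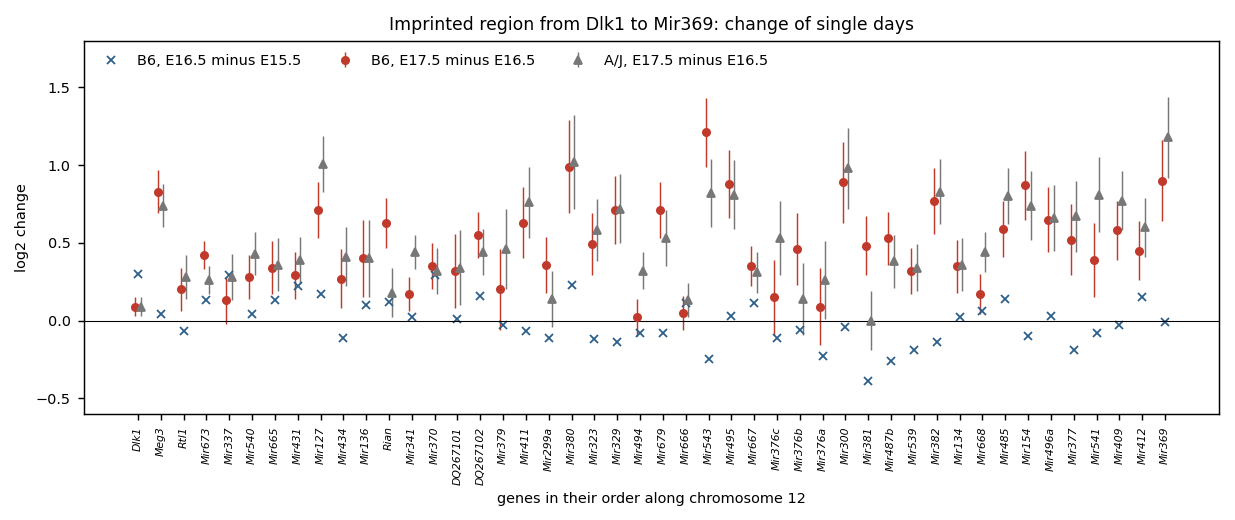
Log2 change (vertical axis) of the 46 genes of the imprinted region in their order along chromosome 12. Circles give B6 and triangles A/J, both E17.5 minus E16.5 with bars of 1 SE, and crosses the day before in B6. All 46 circles lie above 0, with a median of 0.44, and the crosses have a median of 0.00.

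Among vessel genes, Vegfa, the growth factor that lung epithelium supplies to the endothelium, rose by 1.0 on the log2 scale. It had 10.68, 10.53 and 10.55 at E17.5, against 9.61, 9.68 and 9.47 at E16.5 (change 1.0, SE 0.09, adjusted p = 5.4e-09). Its receptors changed less: Kdr by 0.27 (SE 0.07, adjusted p = 0.0116) and Flt1 by 0.28. The Kdr call was lost in 3 alternatives, among them without E16.5 replicate 3 (adjusted p = 0.0638). S1pr1, a receptor for sphingosine phosphate on endothelium, rose by 0.72 (SE 0.10). Car4, a carbonic anhydrase of the capillaries that lie along type I cells, was at 7.26, 6.96 and 6.64 at E17.5 and at 6.03, 6.18 and 5.83 at E16.5 (change 0.94, SE 0.20, adjusted p = 0.0011), and Ace, the angiotensin converting enzyme, rose by 0.86 (SE 0.15). On the lists these genes came from, 6 of 29 angiogenic genes rose and 1 fell (median 0.11), and 7 of 19 genes of mature capillaries rose and 1 fell (median 0.19). The fallen gene of both lists was Aplnr, the apelin receptor (-0.32), and without E16.5 replicate 3 the risen counts were 3 and 4. The fall was lost without E17.5 replicate 1 or 2 or E16.5 replicate 2 or 3. Of 27 general endothelial genes 11 rose and 0 fell (median 0.20), with Gpihbp1, which holds lipoprotein lipase on the capillary wall, at 0.62 (SE 0.13). That count was 4 with centred arrays, 5 without E16.5 replicate 1 or replicate 3, and 6 without E17.5 replicate 1.

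Matrix genes moved by part. Of 26 basement membrane genes 11 rose and 1, Col18a1, fell (median 0.25). The laminin chains Lama3 and Lama5 rose by 0.56 (SE 0.12) and 0.46 (SE 0.09), and Npnt, a ligand of integrins, by 0.47 (SE 0.09). Col18a1, the source of endostatin, was at 9.04, 9.07 and 9.36 at E17.5 and at 9.63, 9.63 and 9.72 at E16.5 (change -0.50, SE 0.11). Eln, elastin, had 12.73, 12.52 and 12.59 at E17.5, against 11.87, 12.15 and 11.84 at E16.5 (change 0.66, SE 0.10), while Fbln1 fell by 0.43 (SE 0.09). Fn1, fibronectin, rose by 0.65 (SE 0.08). Of 30 fibroblast genes 8 rose and 1, Tbx4, fell (-0.19, median of the list 0.05), the fall being lost without any 1 of the 6 litters. The amino acid carrier Slc7a10 rose by 1.15 (SE 0.18) and the methyltransferase Inmt by 1.16 (SE 0.30). The fibroblast count was 5 without E17.5 replicate 2.

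Genes that mark the growing distal tip of the epithelium fell or did not pass. Of 15 such genes 6 fell and 0 rose (median -0.14), and Sox9, the transcription factor of tip progenitors, had 8.12, 8.29 and 8.47 at E17.5, against 8.78, 8.95 and 8.98 at E16.5 (change -0.61, SE 0.12). Clu, clusterin, fell by 0.89 (SE 0.13), Bex1 by 0.61 (SE 0.13) and Wnt7b, a Wnt ligand of the epithelium, by 0.40 (SE 0.09). A separate list of 36 epithelial transcription factors had no common direction: 5 rose and 5 fell (median -0.01), and 2 rose without E16.5 replicate 1. On it Sox11 fell by 0.50 (SE 0.09) and Tfcp2l1, a transcription factor of epithelia, rose by 0.75 (SE 0.11). Fetal growth genes moved both ways: Igf2, the fetal insulin-like growth factor, fell by 0.43 (SE 0.07) and Igfbp6, which binds it, rose by 1.38 (SE 0.16), with 9.75, 9.48 and 9.62 at E17.5 and 8.29, 8.52 and 7.91 at E16.5. The hedgehog, FGF, Wnt, and TGF-beta and BMP lists held calls in both directions around medians between -0.11 and 0.05. Of 35 TGF-beta and BMP genes 7 rose and 7 fell, and of 35 Wnt genes 3 rose and 7 fell. Of 19 FGF genes 3 rose and 1 fell, the fall being lost without any 1 of the 6 litters. The risen FGF count was 0 with centred arrays, 0 without E16.5 replicate 3 and 0 without both litters with high liver RNA. Of 20 Notch genes 2 rose and 0 fell (median 0.01), and 0 rose without E16.5 replicate 3. Over all tested probe sets 6.49% rose and 9.16% fell, and the counts of risen Wnt and Notch genes lay near the first share. Ltbp2, a matrix protein of the latent TGF-beta binding family, rose by 0.61 (SE 0.10), and Nkd1, an inhibitor of Wnt signals, by 0.61 (SE 0.10). When a litter was left out, the TGF-beta and BMP counts were 2 at the lowest for rises (E17.5 replicate 1) and 1 for falls (E16.5 replicate 3), and the count of fallen Wnt genes was 3 (E16.5 replicate 1 or 3).

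Glucocorticoids hasten lung maturation, and Hsd11b1, which makes the active steroid from its inert form, rose by 1.23 (SE 0.18), with 9.33, 9.19 and 9.13 at E17.5 and 8.08, 8.24 and 7.63 at E16.5. Klf9, a target of the glucocorticoid receptor, rose by 0.86 (SE 0.14), and the receptor Nr3c1 had a change of 0.12 (SE 0.09, adjusted p = 0.39). Of 18 genes of the list 7 rose and 0 fell (median 0.31), but this count was 4 with centred arrays, 2 without E16.5 replicate 1, and 3 without E16.5 replicate 3, E17.5 replicate 1 or E17.5 replicate 3. Ier3, an immediate early gene, rose by 1.30 (SE 0.15) and Myc, a driver of growth, fell by 0.64 (SE 0.15). The study placed regulators by the age of their first change from E15.5, in both strains, which is not the comparison made here. Of 8 that it placed at E16.5, a list chosen on these samples, 8 rose in B6 from E15.5 to E16.5 (median 0.77). From E16.5 to E17.5, 5 of them rose (Hopx, Cebpa, Fgf1, Tcf21 and Klf5), with Hopx alone at 1.5-fold. That count was 1 without E17.5 replicate 1 and 2 without E16.5 replicate 1 or replicate 3. Among 8 that it placed at E17.5, 3 rose in B6: Vegfa, Kdr and Sox17, of which Vegfa alone held without E16.5 replicate 3. In A/J over the same day 8 of these 8 rose (median 0.46). These lists are not independent evidence of their direction.

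Some genes of housekeeping processes fell by small amounts, and their counts followed the scaling. Of 37 splicing genes 17 fell (median -0.21), led by Snrpa1, of the U2 particle (-0.56, SE 0.08). Of 81 genes of oxidative phosphorylation 18 fell (median -0.16), and of 59 cytosolic ribosomal protein genes 7 fell (median -0.12). Over all tested probe sets 9.16% fell, and the ribosomal count lay near that share. With centred arrays the splicing, oxidative phosphorylation and ribosomal counts were 28, 42 and 29, and after quantile normalization 11, 12 and 3. Without E16.5 replicate 1 they were 11, 10 and 0, the oxidative phosphorylation count was 7 without E17.5 replicate 2 and 10 without E16.5 replicate 3, and the ribosomal count was 2 to 4 without E17.5 replicates 1 or 2 or E16.5 replicates 2 or 3.

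Within each age the same litter held the extreme value in most of the changed genes. The share over all genes was not taken. Among 275 genes that rose by 1.5-fold, the E17.5 value was highest in replicate 1 for 201 (73.1%), and the E16.5 value was highest in replicate 2 for 220 (80%). Among 308 genes that fell by 1.5-fold, the E17.5 value was lowest in replicate 1 for 252 (81.8%), and the E16.5 value was lowest in replicate 2 for 245 (79.5%). Scgb1a1 is an example, at 9.62 in E17.5 replicate 1, against 9.36 and 9.11 in the other litters of that age, and at 6.88 in E16.5 replicate 2, against 6.25 and 6.07. The litters with high liver RNA were others, E17.5 replicate 2 and E16.5 replicate 1.

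The named genes are given here beside their changes over the day before and the day after. Most were named for their change on this day, the comparisons share litters, and the difference between days was not tested. In B6 from E15.5 to E16.5, 1490 probe sets rose (6.84%) and 1639 fell (7.52%), and from E17.5 to E18.5, 2774 rose (12.7%) and 2392 fell (11%). Chil1 changed by 0.59 over the day before, 3.72 over this day and 2.57 over the next. Lyz1 changed by 0.39, 3.31 and 2.31, Scd1 by 0.17, 3.17 and 1.70, and Sftpd by 0.42, 2.16 and 1.56. Rtkn2 (-0.17, 1.5 and 1.52), Meg3 (0.04, 0.83 and 0.78) and Car4 (0.03, 0.94 and 2.43) also changed little before E16.5.

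Other genes had made most of their change earlier. Slc34a2 changed by 3.95 over the day before, 1.5 over this day and 0.51 over the next, Retnla by 3.77, 1.74 and 1.42, Hsd11b1 by 2.62, 1.23 and 0.54, and Hbb-y by -3.17, -1.56 and -0.25. Mitosis genes had medians of -0.28, -0.77 and -0.91 over the 3 days, with 5, 59 and 59 of 60 fallen, and Hells changed by -0.58, -1.14 and -0.98.

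**Figure D4:**
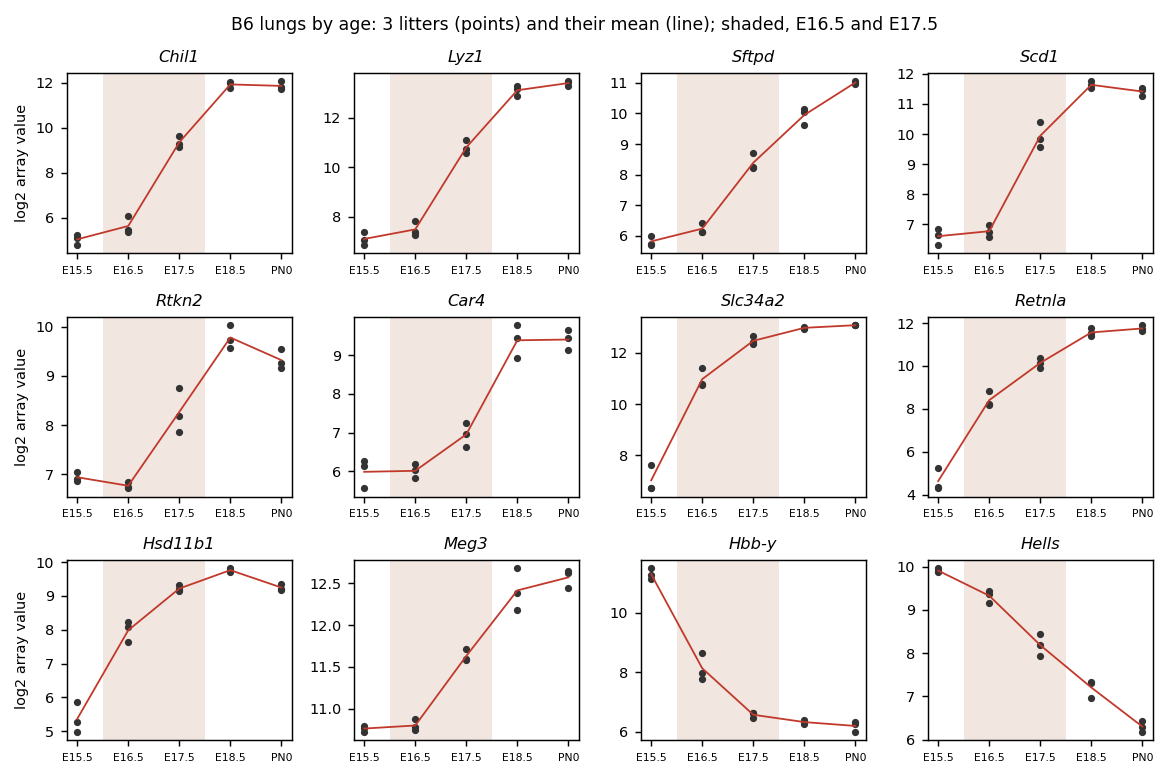
Log2 array values (vertical axis, scaled per gene) of 12 genes in B6 lungs at 5 times from E15.5 to the day of birth (PN0). Points are the 3 litters of a time and lines join their means. Chil1, Lyz1, Sftpd, Scd1, Rtkn2, Car4 and Meg3 change by 0.59 or less before the shaded ages, E16.5 and E17.5, and Slc34a2, Retnla, Hsd11b1 and Hbb-y change most before them.

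The same day in A/J lungs, which shares no sample with B6, gave more calls: 2777 probe sets rose (12.7%) and 3466 fell (15.9%). Of the 331 probe sets that rose by 1.5-fold in B6, 316 (95.5%) also rose in A/J and 0 fell, with median changes of 0.77 in B6 and 1.04 in A/J. Of the 339 that fell in B6, 333 (98.2%) fell in A/J and 0 rose, with medians of -0.74 in B6 and -0.92 in A/J. The change of the day differed between the strains in 32 probe sets (0.147%), of which 7 were higher in B6 and 25 lower. At an unadjusted p under 0.05 there were 2114. The 32 depended on single litters: there were 5 without B6 E16.5 replicate 2, 7 without B6 E16.5 replicate 1, 10 and 17 without B6 E17.5 replicates 2 and 3, and 79 without B6 E16.5 replicate 3. Without an A/J litter there were 13 and 18 (E17.5 replicates 1 and 2) and 61, 16 and 8 (E16.5 replicates 1, 2 and 3).

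Scd1 and Rtkn2 differed most in favour of B6. Scd1 had 10.41, 9.85 and 9.57 at E17.5 and 6.76, 6.99 and 6.57 at E16.5 in B6, against 8.11, 8.12 and 8.30 at E17.5 and 6.98, 6.87 and 6.87 at E16.5 in A/J, so that the strains overlapped at E16.5 and not at E17.5. Its change was 3.17 in B6 and 1.27 in A/J, a difference of 1.90 (SE 0.25, adjusted p = 4.0e-04) that held in each alternative. Rtkn2 changed by 1.5 in B6 and by -0.06 in A/J, where it had 6.60, 6.66 and 6.20 at E17.5 and 6.83, 6.39 and 6.41 at E16.5 (difference 1.56, SE 0.26, adjusted p = 0.00731, and 0.0948 without both B6 litters with high liver RNA). Gas5, a noncoding RNA of arrested growth, changed by 0.07 in B6 and fell by 0.85 in A/J, a difference of 0.92 (SE 0.15, adjusted p = 0.00731, and 0.0971 without both of those litters).

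Ccno, a cyclin-like protein needed to make multiple cilia, changed by -0.25 in B6 and rose by 0.53 in A/J, a difference of -0.78 (SE 0.13, adjusted p = 0.00731, and 0.0507 without B6 E16.5 replicate 2). Wdr63, of the ciliary dynein arms, changed by 0.18 in B6 and rose by 1.03 in A/J, a difference of -0.85 (SE 0.13, adjusted p = 0.00318). These genes and Gas5 were chosen after their values were seen.

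**Figure D5:**
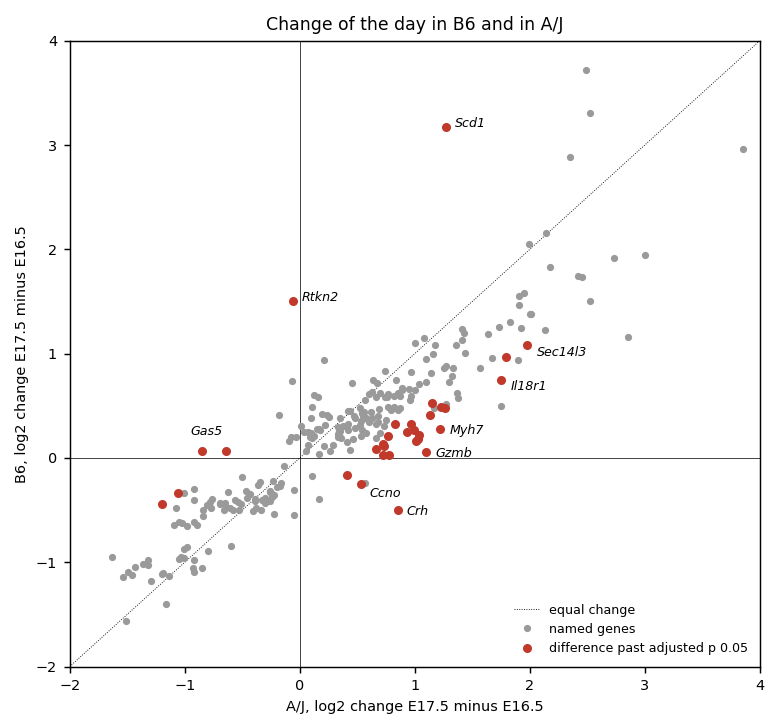
Log2 change of the day (E17.5 minus E16.5) in B6 (vertical axis) against that in A/J (horizontal axis). Each point is a gene, and the dotted line marks equal change. Grey points are the named genes. Red points are the 31 genes, named or not, whose difference between the strains passed an adjusted p of 0.05. Scd1 (3.17 and 1.27) and Rtkn2 (1.5 and -0.06) lie farthest above the line.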

How the data were processed

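RNA of whole right lungs was measured on Affymetrix mouse gene arrays, and the deposited table holds log2 values per probe set that the authors obtained with RMA (background correction, quantile normalization and probe summary) in Affymetrix Expression Console 1.1, per the submitters' processing notes. Per the labels, each array held RNA of 3 male fetuses of 1 litter. The labels do not say whether litters were processed in batches. B6 E18.5 array 2b was averaged with array 2, leaving 36 replicates in 12 groups of 3. Arrays have no read depth, so their number limits the precision, and p-values measure the spread between litters.

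Group means were fitted with limma 3.58.1 (R 4.3.3) over all 36 replicates (24 residual degrees of freedom, eBayes), and the Benjamini-Hochberg adjustment ran over the 21789 probe sets with exactly 1 symbol. Symbols came from the platform annotation. Of the others, 1621 had several symbols and 12146 none. Rose and fell mean an adjusted p under 0.05, and counts by 1.5-fold add that fold. On simulated data for the B6 contrast (21789 probe sets), 98% of 2-fold changes, 77% of 1.5-fold changes and 0.0463% of unchanged probe sets were called. The simulation changed 100 probe sets at each fold, fewer than were called in the data, and drew noise independently for each probe set. Its shares therefore need not hold for these data.

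Named genes were the 12 largest rises and falls without overlap, up to 4 members of each list with the largest change, genes of the study's lists, the 6 largest strain differences, and partners of these, other names being marked where they appear. The members and lists were chosen with earlier results of these data known. Alternatives were centring, quantile normalization, fewer replicates in the fit, filters on probe sets, eBayes with trend, a replicate block and leaving out litters. Promoter and miRNA sequences are RefSeq's (GRCm38.p6), of which 28 mature sequences matched the 15 risen miRNA genes of the chromosome 12 region. Tables and figures were made with Python 3.11.15, pandas 2.3.3 and matplotlib 3.10.9.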

Additional observations from a re-analysis of the deposited data

Results flagged for a closer look

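In 6 genes the change from E16.5 to E17.5 differed between B6 and A/J lungs by limma's test of the difference itself, and these are the 6 largest of the differences that passed. Scd1 rose more in B6 than in A/J (difference 1.90, adjusted p = 4.0e-04). Rtkn2 rose in B6 and not in A/J (difference 1.56, adjusted p = 0.00731, given with its litters above).

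Crh, corticotropin releasing hormone, had 7.79, 8.07 and 8.06 log2 units at E17.5 and 8.64, 8.64 and 8.15 at E16.5 in B6, against 9.05, 9.02 and 8.47 at E17.5 and 8.16, 7.86 and 7.96 at E16.5 in A/J. Its change was -0.50 in B6 and 0.85 in A/J, a difference of -1.36 (SE 0.28, adjusted p = 0.0294). The change in B6 alone did not pass (adjusted p = 0.0865), and the call of the difference was lost in 11 of 21 alternatives, among them without any 1 of the 3 B6 E17.5 litters.

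Il18r1, a subunit of the receptor for interleukin 18, rose in both strains, by 0.75 in B6 and 1.75 in A/J, a difference of -1.0 (SE 0.16, adjusted p = 0.00535) that held in all 21 alternatives (adjusted p at most 0.0317). Gzmb, the protease granzyme B, changed by 0.06 in B6 and 1.1 in A/J (difference -1.04, SE 0.21, adjusted p = 0.026), and its A/J litters at E17.5 were spread from 6.17 to 7.0. Myh7, a myosin heavy chain of heart and slow muscle, changed by 0.28 in B6 and 1.22 in A/J (difference -0.94, SE 0.18, adjusted p = 0.026). The call was lost in 9 of the 21 alternatives for Gzmb, with an adjusted p of 0.121 without B6 E16.5 replicate 2, and in 8 for Myh7, with 0.121 without the same litter.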

How the results depend on the processing

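The rises and falls of 1.5-fold (331 and 339 probe sets) moved little with the fit and with quantile normalization (345 and 349), and more with the threshold and with centring. There were 67 and 25 at a fold of 2, 1414 and 1996 with no fold threshold, and 234 and 519 with each array centred on its median, the cause of which was not tested. Without 1 litter the counts ran from 292 to 408 risen and from 266 to 428 fallen. The 32 strain differences became 50 with centred arrays, 57 after quantile normalization, 66 without the 25% of probe sets of lowest mean, 18 over all probe sets of the table, 63 with trend and robust eBayes, and 5 to 79 without 1 litter. Leaving out both litters with high liver RNA, an alternative chosen after seeing the data, gave 3. Replicate numbers did not pair the litters (correlations of deviations -0.0759, 0.0115 and 0.0187), and the replicate block gave 330 risen, 340 fallen and 28 strain differences. Of 184 called genes among those named or in the chromosome 12 region, 121 kept call and direction in every alternative, 63 lost the call in at least 1, and 0 reversed. Without both litters with high liver RNA, 60 of the 184 lost the call. Precision is limited by 3 litters per age. In simulated data 77% of 1.5-fold changes were called. The simulation changed fewer probe sets than were called here and held no shifts shared within a litter, so this share need not hold here.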
